A study of Lactuca sativa with 12 samples.

Results

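The 98 transcripts described here were the most abundant in above-ground tissue of warm-grown lettuce. They were chosen by averaging the CPM (counts per 1000000 reads on the genes of the table) of the 3 libraries taken at 0 h and keeping the 100 genes with the highest mean. A Rubisco small chain gene (Ls4g153980.1) and the gene of chlorophyll a-b binding protein 16 (Ls2g102941.1) were then left out, so that 98 of the 23933 genes of the table remained. The 0 h libraries thus fixed which genes are members, and every comparison of a member with 0 h is a description without a test. Tests were made only between libraries from the cold.

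Plants of the cultivar 'Salinas' were grown on soil at 20 °C under 350 to 400 µmol m−2 s−1 of light and were 18 days old when the treatment began. RNA was sequenced from plants moved to 4 °C under 100 µmol m−2 s−1 for 4 h, 24 h or 7 d, and from plants sampled at 0 h, before the cold. Each of the 4 time-points had 3 replicates, and the photoperiod was 16 h throughout. All plants were of the same cultivar. Temperature and light were lowered together and the plants at 7 d were a week older than those at 0 h, so that cold, dimmer light and age cannot be told apart. The clock time of harvest is not given in the sources used here. A difference in time of day between 4 h and the other time-points thus cannot be set apart either.

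As background, the messages that dominate a green leaf encode the machinery of photosynthesis. Rubisco fixes carbon dioxide, and its small subunits are encoded in the nucleus by several near-identical genes. Rubisco activase frees Rubisco from bound sugar phosphates so that the enzyme can work. Chlorophyll a-b binding proteins form the antennae that collect light, photosystems I and II turn that light into electron flow, and the oxygen-evolving enhancer proteins stabilise the site at photosystem II where water is split. Because sequencing reads are a fixed total shared by all transcripts, the most abundant messages decide how much of a library is left for the others.

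A gene description could be attached to 14 of the 98 members. The descriptions come from a list of genes that respond to cold in these same plants, so the described members were selected for changing, and their direction is not independent evidence. They comprised 4 Rubisco small chain genes, Rubisco activase 2, 2 chlorophyll a-b binding proteins, a photosystem I subunit, 2 oxygen-evolving enhancer proteins, a carbonic anhydrase, an aquaporin, a phosphoethanolamine N-methyltransferase and a probable xyloglucan endotransglucosylase. The other 84 are given by identifier only. No member had a description as a ribosomal protein, elongation factor, lipid-transfer protein, heat shock protein, dehydrin, tubulin or actin. Only 1619 of the 23933 genes had a description. Among them were 3 ribosomal proteins, 1 elongation factor and 12 lipid-transfer proteins. Heat shock proteins and chaperones had 22, dehydrins and late embryogenesis proteins 5, and tubulin and actin 2. The absence thus says nothing about the 84 members without a description. The digit after "Ls" gives the chromosome. By that digit, chromosome 5 carried 18 members, chromosome 4 carried 15, chromosome 7 carried 13 and chromosome 2 carried 12, and the digit was 0 for 4 members. CPM is not divided by transcript length, so a rank is a rank in reads and not in molecules.

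Depth was even, with 18609189 to 25952306 reads per library on the genes of the table, and 1 read was worth 0.0385 to 0.0537 CPM. All 98 members were therefore measured far above the counting floor of 3 reads. Replicate 3 at 0 h stood apart. It correlated with the other 0 h libraries at 0.976 and 0.979 over all genes, against at least 0.990 for every other pair of replicates, and at 0.939 and 0.958 over the members. It held the highest value of the 3 libraries for 57 of the 98 members. Choosing the members without it gave 94 of the 98. Genes described as Rubisco small chain, Rubisco activase or chlorophyll a-b binding protein summed to 13450 to 13962 CPM at 7 d and 49118 to 53073 CPM at 0 h, over 9 genes of which 7 are members. In between they summed to 47286 to 49050.3 CPM at 4 h and 33408 to 38044 CPM at 24 h. Genes described with epidermal words (16) summed to 723 to 998 CPM before the cold, 526 to 584 CPM at 4 h, 368 to 460.1 CPM at 24 h and 470.3 to 626 CPM after 7 d, so that within the cold they were lowest at 24 h and their 7 d range overlapped with that at 4 h. Those of phloem (2) summed to 73.1 to 114 CPM before the cold, 72.0 to 77.3 CPM at 4 h, 59.4 to 79.1 CPM at 24 h and 40.4 to 54.4 CPM after 7 d. Those of xylem (4) summed to 23.8 to 30.2 CPM before the cold, 24.3 to 28.2 CPM at 4 h, 14.5 to 27.3 CPM at 24 h and 10.3 to 11.7 CPM after 7 d. The part of these lists in the results was not tested. The root and guard cell lists had no described gene and could not be checked. In samples of whole shoots, fewer cells of a type and less RNA per cell cannot be told apart. Every gene in these lists had its description from the list of cold-responsive genes, so a change was built into the choice. The sums thus do not show how much of a cell type was present.

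The members held close to 3 in 10 reads of the warm plants and lost ground at each time-point. Their summed share of all reads was 29.8%, 28.4% and 31.0% in the 0 h libraries, 26.8%, 26.9% and 26.6% at 4 h, 22.5%, 22.9% and 24.1% at 24 h, and 19.0%, 18.4% and 18.6% after 7 d. No library of a time-point overlapped with one of an earlier time-point. The means were 29.7% ± 1.31 before the cold, 26.8% ± 0.191 at 4 h, 23.2% ± 0.841 at 24 h and 18.7% ± 0.277 after 7 d (SD, n = 3 each). Over the 9 cold libraries, which played no part in choosing the members, the share differed between time-points (exact permutation test of F, two-sided, p = 0.00357, the smallest that 3 groups of 3 allow). The share fell by 8.11 percentage points between 4 h and 7 d. It fell by 3.58 points up to 24 h and fell by 4.53 points after that. Each pair of cold time-points was separated fully, and the exact permutation test of 3 against 3 gave its smallest possible p of 0.1 for each of the 3 pairs, also after Benjamini-Hochberg adjustment.

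**Figure D1:**
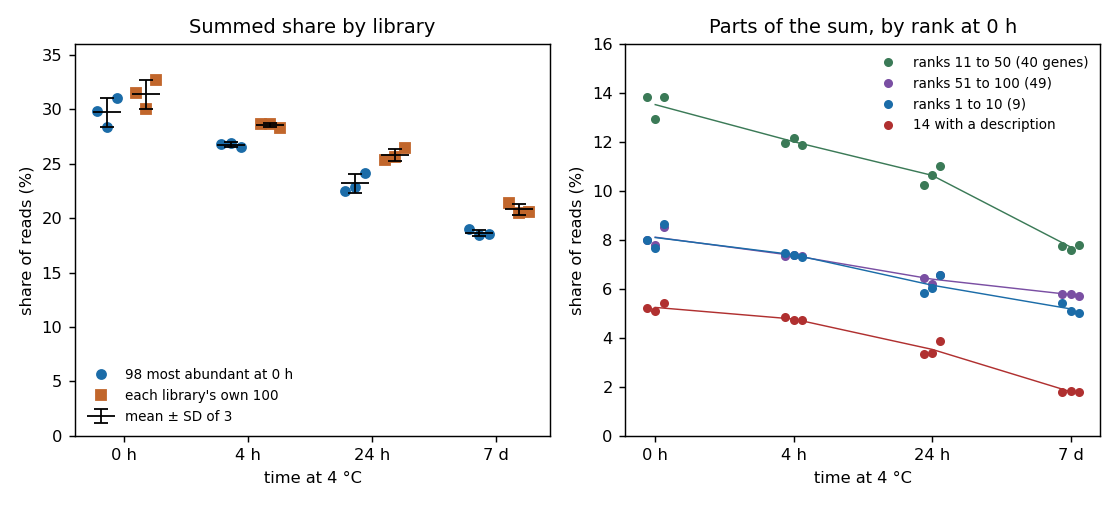
Share of reads (%) against time at 4 °C in each library (points). The left panel shows the 98 genes most abundant at 0 h and each library's own 100 most abundant genes, with the mean and SD of 3, and the right panel shows the same 98 by rank at 0 h and the 14 with a description. The share of the 98 averaged 29.7% before the cold, 26.8% at 4 h, 23.2% at 24 h and 18.7% after 7 d.

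No single gene carried most of the loss. Between 4 h and 7 d, 81 members had a lower mean at 7 d and their sum fell by 9.78 percentage points, while 17 had a higher mean and added 1.67 points. Rubisco activase 2 (Ls2g118741.2) alone fell by 0.894 points, and Ls7g34481.1, which has no description, fell by 0.726 points. The sum of the 5 members with the largest loss fell by 2.92 points, and that of the 10 with the largest loss fell by 4.09 points. The 9 members at ranks 1 to 10 held 5.18% at 7 d and 8.10% at 0 h. The 40 members at ranks 11 to 50 held 7.71% at 7 d and 13.5% at 0 h, and the 49 at ranks 51 to 100 held 5.76% at 7 d and 8.11% at 0 h. The described members, chosen as they were for responding to cold, averaged 1.80% of reads at 7 d and 5.24% at 0 h. The 84 without a description averaged 16.9% at 7 d and 24.5% at 0 h. Since each library sums to the same total, all other genes of the table held 81.3% of reads at 7 d and 70.3% at 0 h.

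Set beside 0 h as a description, most members were lower in the cold and the gap widened with time. The mean was lower in the cold for 78 of 98 members at 4 h, 88 at 24 h and 87 after 7 d. Every cold library lay under every 0 h library for 48 members at 4 h (13.2% of all tested genes did so), 65 at 24 h (21% of all) and 77 at 7 d (18.4% of all). Every cold library lay above every 0 h library for 8 members at 4 h (22.6% of all), 2 at 24 h (28.5% of all) and 8 at 7 d (37.5% of all). The mean was at most 0.5 times that at 0 h for 1 member at 4 h (2.73% of all), 7 at 24 h (8.13% of all) and 35 at 7 d (7.74% of all). No member reached 2 times its 0 h mean at any cold time-point, whereas 8.76% of all tested genes did at 4 h, 9.69% at 24 h and 11.5% after 7 d. These counts share the 0 h libraries that chose the members, and nothing is read from them. The single member at or under 0.5 times its warm level at 4 h was phosphoethanolamine N-methyltransferase 1 (Ls2g11881.2).

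The median log2 fold change of the members over 0 h was −0.15 at 4 h, −0.32 at 24 h and −0.72 after 7 d, against 0.03, 0.04 and 0.15 over all 22306 tested genes. Scaling by library size thus left the median gene 0.15 higher at 7 d than at 0 h on the log2 scale, and 0.11 higher at 7 d than at 24 h. TMM normalization, which recentres on the bulk of the genes, brought these medians to 0.02 and 0.01. Small rises at 7 d are to be read against that shift.

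**Figure D2:**
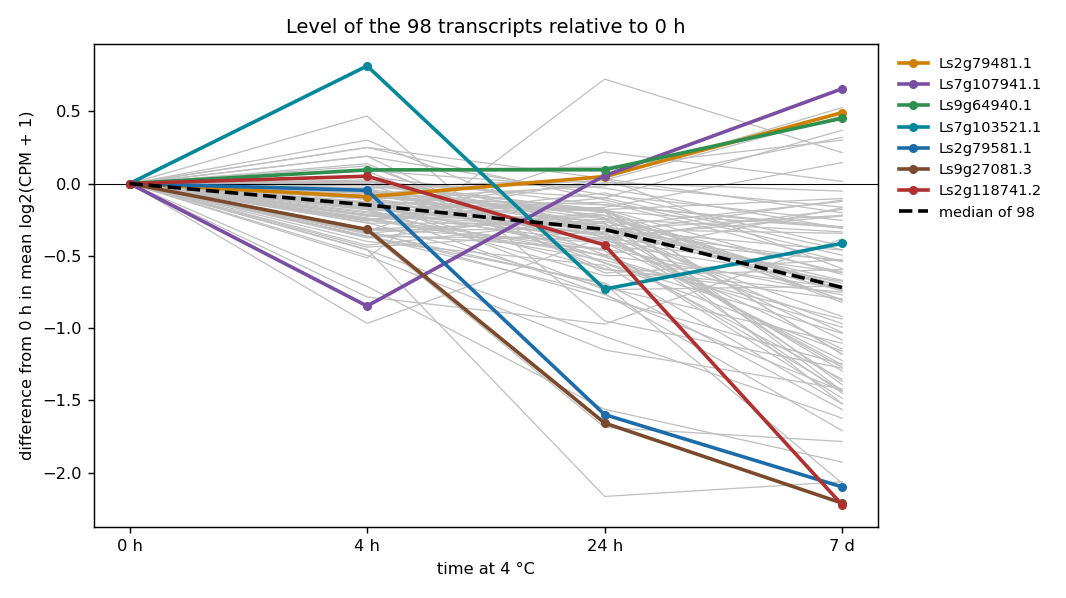
Difference from 0 h in mean log2(CPM + 1) against time at 4 °C for each of the 98 transcripts (grey lines), with 7 of them coloured and the median dashed. The median was −0.15 at 4 h, −0.32 at 24 h and −0.72 after 7 d, and single genes at 7 d lay between −2.22 (Ls2g118741.2) and 0.66 (Ls7g107941.1).

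Within the cold, where tests were possible, most of the members called were downregulated. A call needed a change of at least 2-fold and an adjusted p-value (limma, Benjamini-Hochberg over the tested genes) no higher than 0.01. Between 4 h and 24 h, 6 members were downregulated (3.93% of all tested genes were) and 1 was upregulated (2.5% of all). Between 24 h and 7 d, 9 were downregulated (2.52% of all) and none upregulated (1.17% of all). EdgeR and DESeq2 also called none upregulated there, although 10 members were higher at 7 d than at 24 h by an unadjusted limma p-value under 0.05, by at most 0.60 on the log2 scale (Ls7g107941.1). Between 4 h and 7 d, 30 were downregulated (6.21% of all) and 1 was upregulated (4.14% of all). In all, 32 members were called in at least 1 of the 3 comparisons and 66 in none. The matching share over all tested genes was not counted, so nothing is read from these totals. By adjusted p-value alone, 25 members were lower (11.7% of all) and 3 higher (9.32% of all) at 24 h than at 4 h. At 7 d, 45 were lower (7.81% of all) and 7 higher (13.4% of all) than at 24 h, and 68 were lower (14.9% of all) and 8 higher (22% of all) than at 4 h. The median log2 fold change of the members was −0.19, −0.37 and −0.61 in these 3 comparisons, against −0.01, 0.11 and 0.10 over all tested genes.

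The count between 24 h and 7 d depended on scaling. It was 17, all lower, with TMM or RLE normalization, with edgeR and with DESeq2, and it was 14 without 24 h replicate 1. The 7 members higher at 7 d than at 24 h by adjusted p-value alone became none with TMM or RLE normalization (limma, with 7 at an unadjusted p-value under 0.05 in each), 1 with edgeR and 6 with DESeq2. They became 4 without 24 h replicate 1 or 7 d replicate 3, 3 without 24 h replicate 2 or 7 d replicate 1, and 2 without 24 h replicate 3 or 7 d replicate 2. The 8 higher at 7 d than at 4 h became 5 with TMM and 4 with RLE normalization. The 30 called downregulated between 4 h and 7 d became 35 with TMM or RLE normalization, with edgeR and with DESeq2. Over all tested genes, the calls between 24 h and 7 d were 260 higher and 563 lower at 7 d, and with TMM normalization 153 higher and 745 lower. Those between 4 h and 7 d were 924 higher and 1386 lower at 7 d, and with TMM normalization 625 higher and 1629 lower. The 25 members lower at 24 h than at 4 h by adjusted p-value alone became 13 without 24 h replicate 1, 15 without 4 h replicate 2, and 16 without 4 h replicate 3 or 24 h replicate 2. The 3 higher became 5 without 0 h replicate 3 and 2 without 24 h replicate 2.

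**Figure D3:**
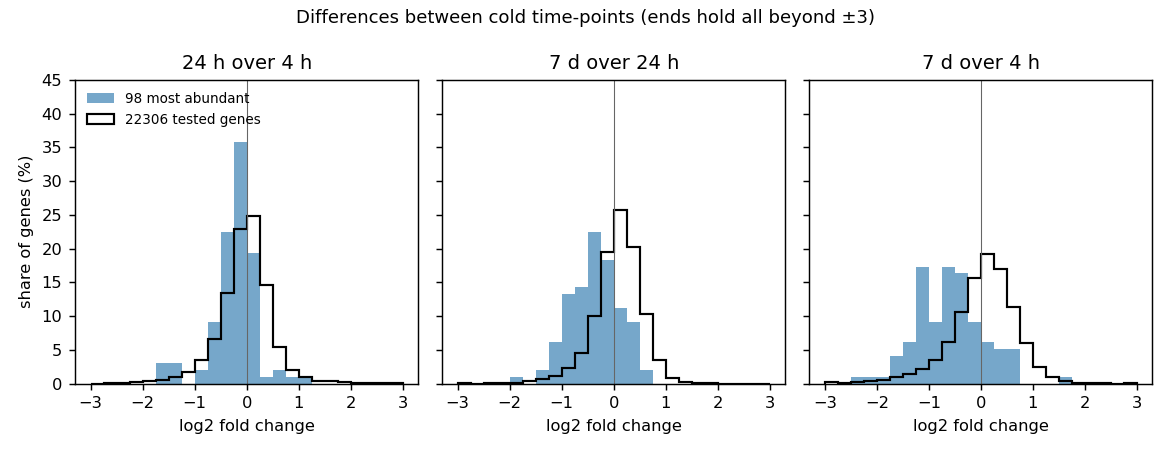
Distribution of limma log2 fold changes of log2(CPM + 1) between cold time-points, as the share of genes (%) in each bin, for the 98 members (filled) and all 22306 tested genes (outline). The members' medians were −0.19, −0.37 and −0.61 in the panels for 24 h over 4 h, 7 d over 24 h and 7 d over 4 h, against −0.01, 0.11 and 0.10 for all tested genes.

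Rubisco activase 2 and a Rubisco small chain gene had the largest falls of the 98 members between 4 h and 7 d. Rubisco activase 2 (Ls2g118741.2, rank 4 at 0 h) had 10199.8, 10566 and 11944 CPM at 0 h, 11576, 11057 and 11169.8 CPM at 4 h, 7905, 7468 and 9005 CPM at 24 h, and 2237, 2458 and 2298 CPM at 7 d. Its level thus stood within the warm range at 4 h and was at its lowest at 7 d, with no overlap between the 7 d libraries and any other. The log2 fold change was −1.80 ± 0.10 (SE) at 7 d over 24 h (limma, adjusted p = 3.02e-07) and −2.27 ± 0.10 at 7 d over 4 h (adjusted p = 3.51e-08).

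The 4 Rubisco small chain members summed to 1.85% ± 0.115 of reads before the cold, 1.75% ± 0.0534 at 4 h, 1.11% ± 0.155 at 24 h and 0.611% ± 0.0243 after 7 d (SD, n = 3 each). All 4 were downregulated at 7 d compared with 4 h, but they did not take the same course. Ls2g79581.1 had 6079, 6093 and 6689.8 CPM at 0 h, 6228, 5890.2 and 6122 CPM at 4 h, 1826, 1798 and 2713 CPM at 24 h, and 1469, 1527 and 1402 CPM at 7 d. Most of its loss had taken place by 24 h, with a log2 fold change of −1.55 ± 0.14 over 4 h (limma, adjusted p = 6.71e-06), and that from 24 h to 7 d was −0.50 ± 0.14 (adjusted p = 0.0152), or −0.63 with TMM normalization (adjusted p = 0.00915). Ls2g79600.1 had 7418, 7353 and 8155 CPM at 0 h, 7081, 6749.6 and 6734 CPM at 4 h, 5077, 5331 and 6274 CPM at 24 h, and 2785, 2779.6 and 2614 CPM at 7 d. Most of its loss came after 24 h instead, with −0.31 ± 0.10 at 24 h over 4 h (adjusted p = 0.0333) and −1.02 ± 0.10 at 7 d over 24 h (adjusted p = 1.97e-05). That later fall was −0.93 without 24 h replicate 3 and −0.99 without 7 d replicate 3, just under 2-fold.

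Ls2g79541.1 followed the later course, with 640.1, 667 and 614 CPM at 7 d, against 1453, 1419 and 1694 CPM at 24 h, and a log2 fold change of −1.24 ± 0.10 (limma, adjusted p = 4.17e-06). Ls2g79501.1 fell by similar amounts in each interval, −0.55 ± 0.11 at 24 h over 4 h (adjusted p = 0.00254) and −0.61 ± 0.11 at 7 d over 24 h (adjusted p = 0.00146). How reads shared between near-identical copies were assigned is not given in the sources used here, so the split between these 4 genes is uncertain. Their sum leaves out the Rubisco small chain gene Ls4g153980.1, and any reads shared with that gene would make the sum uncertain too.

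The carbonic anhydrase gene Ls0g19321.2, whose product interconverts carbon dioxide and bicarbonate, was lowest at 7 d. It had 1668, 1529 and 1236 CPM before the cold (0 h), 1517, 1409 and 1553 CPM at 4 h, 1262, 1141 and 1339 CPM at 24 h, and 471, 542 and 517 CPM after 7 d. The 4 h libraries lay within the range at 0 h, and the 7 d libraries lay under all others. The 24 h libraries lay under those at 4 h and overlapped with those at 0 h. The log2 fold change at 24 h over 4 h did not pass the threshold (−0.26 ± 0.12, limma, adjusted p = 0.118). The log2 fold change at 7 d over 24 h was −1.29 ± 0.12 (limma, adjusted p = 1.42e-05).

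Of the 5 described members of the light reactions, 4 had their largest loss between 24 h and 7 d, as did 48 of all 98 members. With TMM normalization these counts were 5 and 60. The 5 were described only because they were on the list of cold-responsive genes, and the counts use the 0 h means. Nothing is therefore read from them about genes of the light reactions. Oxygen-evolving enhancer protein 2 (Ls3g35220.2) had 5173, 4803 and 3976 CPM before the cold (0 h), 3996, 3984 and 3962 CPM at 4 h, 3154, 3204 and 3472 CPM at 24 h, and 1798, 1789 and 1839 CPM after 7 d. Its libraries in the cold did not overlap between time-points, and the log2 fold change was −0.86 ± 0.10 at 7 d over 24 h (limma, adjusted p = 9.39e-05) and −1.14 ± 0.10 at 7 d over 4 h (adjusted p = 3.90e-06). Oxygen-evolving enhancer protein 3-2 (Ls1g123241.1) moved the same way by less, with −0.75 ± 0.09 at 7 d over 4 h (adjusted p = 1.93e-05), and so did not reach 2-fold.

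Photosystem I reaction centre subunit N (Ls1g10061.1) averaged 1037 CPM at 7 d and 1958 CPM at 24 h, with a log2 fold change of −0.91 ± 0.12 (limma, adjusted p = 0.000169). With TMM normalization it was −1.04 (adjusted p = 1.94e-05) and counted as a call. Chlorophyll a-b binding protein 21 (Ls1g95341.1) had 2308, 2112 and 2513 CPM before the cold (0 h), 2184, 2254 and 2162 CPM at 4 h, 1940.5, 2139 and 2039 CPM at 24 h, and 1062, 942 and 1045 CPM after 7 d. The 0 h libraries overlapped with those at 4 h and at 24 h, whereas the 7 d libraries lay under all others, and the log2 fold change at 7 d over 24 h was −1.005 ± 0.10 (adjusted p = 1.75e-05). It was −0.97 without 24 h replicate 2 and −0.95 without 7 d replicate 2. The second antenna gene, chlorophyll a-b binding protein P4 (Ls4g109340.2), had similar steps, −0.45 ± 0.11 at 24 h over 4 h (adjusted p = 0.0066) and −0.39 ± 0.11 at 7 d over 24 h (adjusted p = 0.0144). With TMM normalization these were −0.44 (adjusted p = 0.0149) and −0.51 (adjusted p = 0.00751), so that the order of the steps and which of them passed the threshold depended on scaling.

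**Figure D4:**
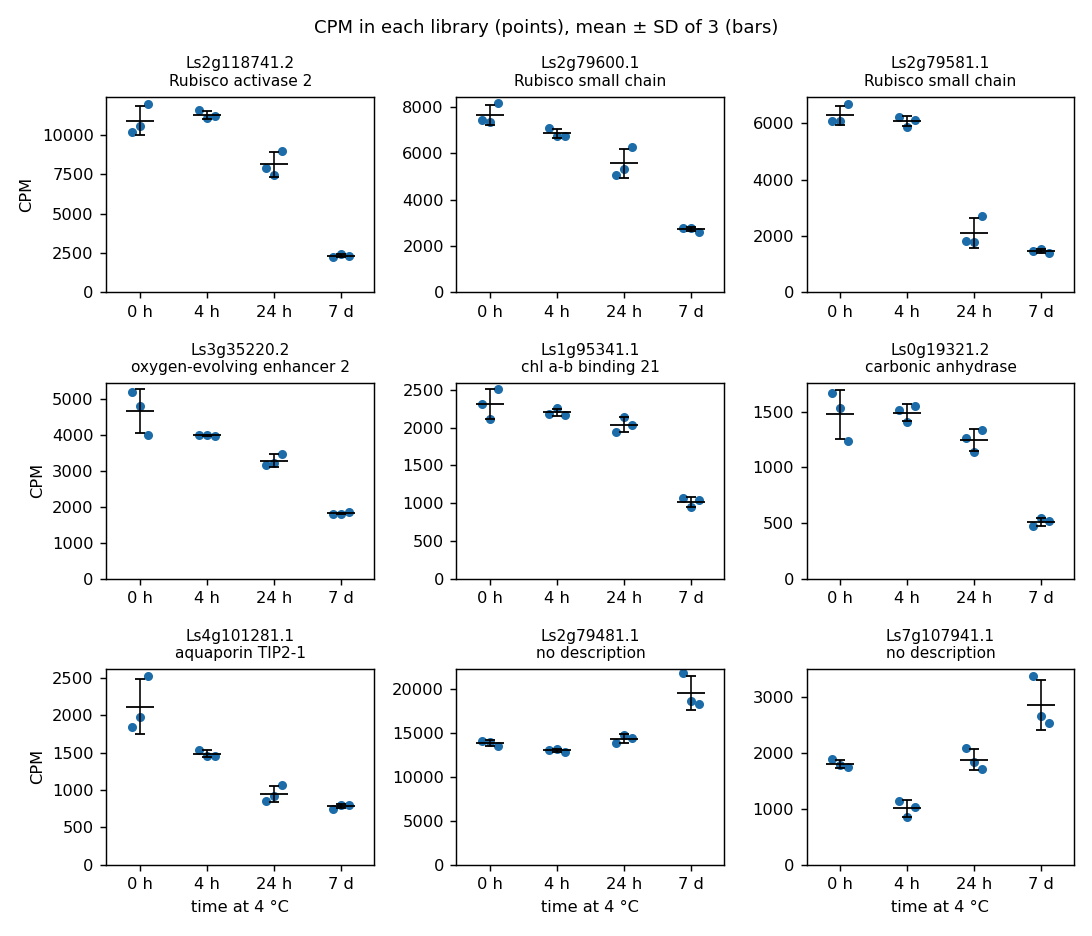
CPM in each library (points) with the mean and SD of 3, against time at 4 °C, for 9 members; every vertical axis starts at 0 and has its own scale. Rubisco activase 2 averaged 2331 CPM at 7 d and 10903 CPM at 0 h, whereas Ls2g79481.1 averaged 19518 CPM at 7 d and 13849 CPM at 0 h.

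The remaining 3 described members were not genes of photosynthesis. The aquaporin TIP2-1 (Ls4g101281.1), a water channel of the vacuolar membrane, had 1840.3, 1979 and 2533 CPM before the cold (0 h), 1539, 1459 and 1459 CPM at 4 h, 848, 927 and 1067 CPM at 24 h, and 754, 795 and 801 CPM after 7 d. No time-point overlapped with an earlier one, and the step from 4 h to 24 h was the larger within the cold (log2 fold change −0.65 ± 0.13, limma, adjusted p = 0.00168). The probable xyloglucan endotransglucosylase/hydrolase 6 (Ls3g84840.1), of a family of enzymes that remodel the cell wall, had 1046, 1155 and 2076 CPM before the cold (0 h), 814, 904 and 776 CPM at 4 h, 376, 444 and 581 CPM at 24 h, and 349, 358 and 362 CPM after 7 d. Its place among the members rested on 0 h replicate 3, without which it would not have been chosen, and its log2 fold change at 7 d over 4 h was −1.22 ± 0.22 (adjusted p = 0.000643).

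Phosphoethanolamine N-methyltransferase 1 (Ls2g11881.2), an enzyme on the route to phosphocholine, had 2438, 1931 and 1275 CPM before the cold (0 h), 969, 875 and 944 CPM at 4 h, 1611, 1319 and 1316 CPM at 24 h, and 675, 829 and 788 CPM after 7 d. The 24 h libraries lay above those at 4 h and 7 d and overlapped with those at 0 h. The higher level at 24 h did not pass the threshold (log2 fold change 0.60 ± 0.19 over 4 h, limma, adjusted p = 0.0293), whereas the fall from 24 h to 7 d did (−0.89 ± 0.19, adjusted p = 0.00362). This was less than 2-fold, but with TMM normalization it was −1.01 (adjusted p = 0.000596) and counted as a call.

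Of the members without a description, Ls7g34481.1 (rank 3) lost the most reads. It had 13388, 11559 and 14714 CPM at 0 h, 10159, 10943 and 10129.6 CPM at 4 h, 6812, 8723 and 9004 CPM at 24 h, and 2620.4, 3369.9 and 3449.9 CPM at 7 d. The libraries of successive time-points did not overlap, and the log2 fold change at 7 d over 24 h was −1.38 ± 0.14 (limma, adjusted p = 2.86e-05). Ls5g6741.1 (rank 6) fell in both intervals by about the same amount, −0.59 ± 0.10 and −0.67 ± 0.10, and Ls7g99221.1 (rank 11) fell by 1.02 ± 0.09 on the log2 scale between 4 h and 7 d. For Ls7g99221.1 the log2 fold change was −0.99 without 4 h replicate 2 and −0.995 without 7 d replicate 2, just under 2-fold. Ls2g78480.1 (rank 8) fell by 0.57 ± 0.10 over the same span (adjusted p = 0.000523), short of 2-fold.

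A smaller set lost most of its level within the first day. Ls9g27081.3 had 2773, 2688 and 2481 CPM at 0 h, 2127, 2130.0 and 2109 CPM at 4 h, 717, 773 and 1061 CPM at 24 h, and 534, 577 and 602 CPM at 7 d. Its log2 fold change was −1.34 ± 0.13 at 24 h over 4 h (limma, adjusted p = 1.34e-05) and −0.55 ± 0.13 at 7 d over 24 h (adjusted p = 0.00648). Ls4g183881.1 had 1101, 1810.0 and 1996 CPM before the cold (0 h), 1124, 1229 and 1115 CPM at 4 h, 301, 322 and 451 CPM at 24 h, and 261, 467 and 444 CPM after 7 d. It fell by 1.71 ± 0.25 on the log2 scale between 4 h and 24 h (adjusted p = 0.000251), and the 24 h and 7 d libraries overlapped.

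Ls7g103521.1 was highest at 4 h. It had 1708, 1170.0 and 1606 CPM at 0 h, 2209.6, 2822 and 2797 CPM at 4 h, 805, 806 and 1081 CPM at 24 h, and 981, 1171 and 1182 CPM at 7 d. The 4 h libraries were above all others and the 24 h libraries under all those at 4 h and 0 h, with a log2 fold change of −1.54 ± 0.17 at 24 h over 4 h (limma, adjusted p = 2.82e-05). Ls8g26460.2 and Ls7g106541.2 complete the 6 members downregulated in that interval, with −1.42 ± 0.14 and −1.35 ± 0.13. Ls8g26460.2 also had its highest mean at 4 h, 1882 CPM, against 1364 CPM at 0 h. In all, 68 members had their highest mean before the cold, 18 at 4 h, 3 at 24 h and 9 after 7 d. Choosing the members on the 0 h libraries favours a highest mean there, so these counts are a description only.

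The most abundant member of all was among the few with a higher mean at 7 d than at 0 h. Ls2g79481.1 (rank 2 in the table at 0 h) had 14100.5, 13952 and 13495 CPM before the cold (0 h), 13014, 13134 and 12838 CPM at 4 h, 13817, 14772 and 14386 CPM at 24 h, and 21768, 18542 and 18244 CPM after 7 d. The 7 d libraries were above all others. The log2 fold change at 7 d over 24 h was 0.44 ± 0.09 (limma, adjusted p = 0.0032), and with TMM normalization it was 0.32 (adjusted p = 0.0395), past no threshold used here. Over 4 h it was 0.58 ± 0.09 (adjusted p = 0.000252), and 0.46 with TMM normalization (adjusted p = 0.00331). Its identifier number lies next to those of the 4 Rubisco small chain members, which fell, but no description could be attached to it.

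Ls7g107941.1 was the member upregulated at least 2-fold between 4 h and 7 d. It had 1884, 1776 and 1743 CPM at 0 h, 1139.8, 850.4 and 1031 CPM at 4 h, 2079, 1841 and 1708 CPM at 24 h, and 3372, 2664 and 2539.7 CPM at 7 d. The 4 h libraries were the lowest, the 24 h libraries overlapped with those at 0 h, and the 7 d libraries were the highest, with a log2 fold change of 1.50 ± 0.14 at 7 d over 4 h (limma, adjusted p = 3.71e-06). It was 1.38 with TMM normalization. Ls1g70780.3 peaked earlier, with 2465, 2305 and 2119 CPM at 24 h, against 1065, 898 and 959.6 CPM at 4 h, and 1797, 1551 and 1501 CPM at 7 d. Its mean at 4 h was the lowest of the 4 time-points, under that at 0 h, and its mean at 24 h did not reach 2 times that at 0 h. Its log2 fold change at 24 h over 4 h was 1.24 ± 0.11 (adjusted p = 7.96e-06), and at 7 d over 24 h it was −0.51 ± 0.11 (adjusted p = 0.00455).

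The other members with the highest levels at 7 d relative to 0 h were Ls1g27961.2, Ls1g107461.2 and Ls9g64940.1, at 1.44, 1.38 and 1.37 times their 0 h means. Ls9g64940.1 had 3821, 3807 and 3705 CPM before the cold (0 h), 4044, 4011 and 4043 CPM at 4 h, 4206, 3853 and 4054 CPM at 24 h, and 5152, 5178 and 5173 CPM after 7 d. Its rise at 7 d over 24 h was 0.36 ± 0.08 on the log2 scale (limma, adjusted p = 0.0052), and 0.23 with TMM normalization (adjusted p = 0.0702). Ls2g97861.1 (rank 10) was at 1.28 times its 0 h mean, with 7489 ± 520.0 CPM at 7 d and 5411 ± 324 CPM at 24 h (SD, n = 3 each). Its rise of 0.47 ± 0.11 on the log2 scale (adjusted p = 0.00678) was 0.34 with TMM normalization (adjusted p = 0.0845).

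Few members kept 1 level throughout. The highest and lowest of the 4 time-point means lay within 1.25 times of each other for 7 members, and at least 4 times apart for 5. Ls4g64540.1 (rank 5) was the most abundant of the steady ones, with 8554, 7960.0 and 9061 CPM before the cold (0 h), 8141, 7832 and 7938 CPM at 4 h, 7573, 7236 and 7743 CPM at 24 h, and 7958, 7839 and 7966 CPM after 7 d. Its log2 fold change at 7 d over 4 h was −0.01 ± 0.09 (limma, adjusted p = 0.94), and −0.13 with TMM normalization. The 5 with the widest range were Rubisco activase 2 (4.83 times), Ls9g27081.3 (4.64 times), Ls4g183881.1 (4.57 times), Ls2g79581.1 (4.29 times) and Ls7g34481.1 (4.20 times). A lower mean at each successive time-point was found for 46 of the 98, and a higher one for 2, Ls9g64940.1 and Ls2g122641.1. With TMM normalization 57 were lower at each step. Of the other 96, the step with the largest loss was 0 h to 4 h for 21 members, 4 h to 24 h for 27 and 24 h to 7 d for 48. With TMM normalization it was 24 h to 7 d for 60. All counts in this paragraph include the 0 h means that chose the members. They are a description, and the same counts over all tested genes were not made.

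How far a member fell was only loosely related to how abundant it had been. Across the 98 genes, which share libraries and are not independent, the log2 level at 0 h and the log2 ratio of 7 d over 0 h had a Pearson r of −0.21 and a Spearman rho of −0.25, and the level at 0 h enters both measures. Changes in the first and second interval in the cold were close to unrelated across genes (r = 0.02, rho = 0.10, n = 98), although both contain the 24 h level with opposite sign. Identifier numbers placed 4 members near each other on chromosome 4 (Ls4g28800.2, Ls4g28820.1, Ls4g28860.1 and Ls4g28880.1), a group noticed after the values were known. All 4 were downregulated at 7 d compared with 4 h, with log2 fold changes of −1.16, −1.08, −1.34 and −1.05. Other neighbours by number did not move together. On chromosome 8, Ls8g26440.1 changed by 0.40 (limma, adjusted p = 0.0108, past no threshold) and Ls8g26460.2 by −1.74. On chromosome 2, Ls2g79481.1 was higher at 7 d than at 4 h and the 4 Rubisco small chain members beside it were lower.

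Ls4g28820.1 and Ls9g103440.3 stood just inside the limit of 100 genes, at 1212 ± 87.5 and 1186 ± 55.0 CPM at 0 h. Ls3g139620.1 and the photosystem I subunit IV A gene Ls2g15600.3 stood just outside it, at 1160.5 ± 213 and 1159.8 ± 96.0 CPM (SD, n = 3 each). These differences were within the spread between replicates, so the order of genes at the limit was not resolved. The median coefficient of variation of the members over 3 replicates was 8.56% before the cold, 2.42% at 4 h, 6.17% at 24 h and 4.20% after 7 d. By this measure, and over the members only, the 4 h libraries were the most alike. Over all tested genes they did not stand out. Replicates there correlated at 0.990 to 0.994 at 4 h, 0.992 to 0.993 at 24 h and 0.991 to 0.995 at 7 d. At 24 h, replicate 3 held the highest value for 58 of the 98 members.

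Many of the members stayed in the top ranks even as their levels declined. Of the 98, 91 were still among the 100 most abundant genes at 4 h, 80 at 24 h and 73 after 7 d, and 94 were so in each 0 h library taken alone. Among the 200 most abundant genes there were 98, 96 and 89 of them at 4 h, 24 h and 7 d. The lowest ranks reached were 126 at 4 h and 403 at 7 d, both by Ls3g84840.1, and 337 at 24 h by Ls4g183881.1.

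The first 100 places were taken over by 7 other genes at 4 h, 19 at 24 h and 26 after 7 d. Together these were 37 genes, of which 3 entered at all 3 cold time-points. They were chosen for being high in the cold, and their values are a description. Ls8g37801.3 ranked highest among them at 4 h, with 2981, 2964 and 2907 CPM, against 945, 991 and 1467 CPM at 0 h. It kept a high place later, with 2294, 2425 and 2391 CPM at 24 h and 2001, 2143 and 2121 CPM at 7 d. Next at 4 h came Ls6g35480.1, with 1301, 1209 and 1274 CPM, against 1275, 1161 and 995 CPM at 0 h, and Ls8g106740.1, with 1278, 1046 and 1345 CPM, against 683, 422 and 578 CPM at 0 h. The 4 h and 0 h libraries overlapped for Ls6g35480.1 and not for Ls8g106740.1. Ls8g27820.3 ranked highest at 24 h, with 3939, 4382 and 3664 CPM, against 356, 451 and 584 CPM at 0 h, and Ls5g119120.1 had 2209, 2172 and 1846 CPM at 24 h, against 800.0, 749 and 375 CPM at 0 h. In both, every 24 h library was above every 0 h library. Ls5g5940.1 ranked highest at 7 d, with 2492, 2042 and 1988 CPM, against 713, 652 and 643 CPM at 0 h, and Ls5g134540.2 followed with 2219, 2122 and 2104 CPM at 7 d, against 1103, 1239 and 1046 CPM at 0 h.

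Of the genes that entered, 3 had a description. Late embryogenesis abundant protein ECP63 (Ls2g24040.2), of a family of hydrophilic proteins known from drying seeds and cold-stressed leaves, entered at 24 h with 1926, 2146 and 1673 CPM, against 20.6, 21.6 and 29.6 CPM at 0 h. A soluble beta-fructofuranosidase (Ls2g125121.3), which splits sucrose, had 1654, 1405 and 1377 CPM at 7 d, against 177, 195 and 232 CPM at 0 h. The alpha subunit of the RuBisCO large subunit-binding protein (Ls1g63701.3), a chaperone of Rubisco assembly, had 1726, 1650.4 and 1664 CPM at 7 d, against 777, 756 and 662 CPM at 0 h. The gene that came from furthest was Ls4g84040.2, without a description, at 1734, 1387 and 1512 CPM at 7 d, against 1.13, 1.78 and 2.00 CPM at 0 h.

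**Figure D5:**
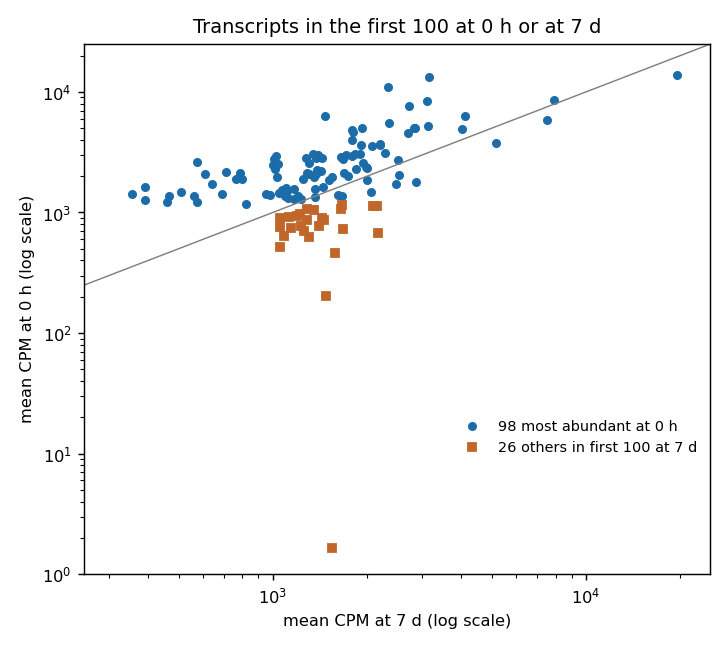
Mean CPM at 7 d (horizontal, log scale) and at 0 h (vertical, log scale) of the 98 members and of the 26 other genes among the 100 most abundant at 7 d; the line marks equal levels. Members mostly lie above the line, with 87 of 98 lower at 7 d than at 0 h, and the entering genes lie under it.

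The genes that entered did not make up for what the members lost. The 100 most abundant genes of each library, chosen anew in each, held 31.4% ± 1.33 of reads before the cold, 28.5% ± 0.185 at 4 h, 25.8% ± 0.538 at 24 h and 20.8% ± 0.528 after 7 d (SD, n = 3 each). Over the 9 cold libraries it differed between time-points (exact permutation test of F, two-sided, p = 0.00357, the smallest possible), a test chosen after seeing the data. The 0 h values are a description, since they overlap with those that chose the members. The 7 d libraries held 21.4%, 20.5% and 20.5%, against 31.5%, 30.0% and 32.7% in those at 0 h, a difference of −10.56 percentage points. Each pair of cold time-points was separated with no overlap, at the smallest p that an exact permutation test of 3 against 3 allows, 0.1. Each library's own 10 most abundant genes held 6.08% of reads at 7 d and 9.54% at 0 h.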

How the data were processed

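The authors mapped paired-end reads of 150 bases to the lettuce genome (version 8) with STAR 2.5.2, counted them with featureCounts for each gene, and deposited CPM, that is, counts scaled so that the 23933 genes listed sum to 1000000 in every library. The values were checked: all 12 columns sum to that total, and whole reads were recovered from 100% of the values (tolerance 0.01 reads).

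The 22306 genes that reached 0.5 CPM in 2 or more libraries were tested with limma 3.58.1 in R 4.3.3 on log2(CPM + 1), in 1 fit of all 12 libraries with time-points as groups. P-values were adjusted by Benjamini-Hochberg within each comparison, and a call needed 2-fold and adjusted p no higher than 0.01. Group fold changes are on the log2(CPM + 1) scale. The edgeR 4.0.16 quasi-likelihood test on recovered reads called 1954 of these genes between 4 h and 24 h, 1346 between 24 h and 7 d and 3222 between 4 h and 7 d, against 1434, 823 and 2310 in limma. DESeq2 1.42.0 was a further alternative. Single values per library were compared by exact permutation over the cold libraries alone, also where all 12 had been planned (each library's own 100 genes), in Python 3.11.15 (NumPy 2.4.6).

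Replicates were biological by the methods of the study. The members and gene lists were chosen with earlier results of these data known. Members named singly were the 10 highest at 0 h, up to 3 of each functional list, the largest rises and falls called between cold time-points, the 5 highest and 5 lowest ratios of 7 d over 0 h, the genes beside the limit of 100, and the 3 highest entrants at each cold time-point. The other described members and entrants and the remaining members called between 4 h and 24 h were added after their values were seen. So were the steadiest and widest-ranging members, Ls4g84040.2 and the groups with neighbouring identifiers on chromosomes 4 and 8. Families over the whole table were not tested, since descriptions covered cold-responsive genes alone. Sequences and gene lengths were not used. Other settings tried were a pseudocount of 0.1 CPM, no filter, TMM and RLE normalization, fits of fewer libraries, a replicate block, other numbers of genes (50 and 200), and leaving out each library. The steps were tested on simulated data.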

Additional observations from a re-analysis of the deposited data

How the results depend on the processing

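The summed share stayed lower at 7 d than at 4 h, by −9.69 to −6.51 percentage points against −8.11, with TMM normalization, with the 50 or 200 highest genes, with the 2 omitted genes kept, without the Rubisco small chain and chlorophyll a-b binding members, and with members chosen without each of the 0 h replicates. With RLE scaling, added after seeing the data, it was −9.92. With TMM, RLE, edgeR and DESeq2 the number of members called between 24 h and 7 d was 17 each, against 9. The median log2 fold change of the members became −0.50, −0.51, −0.50 and −0.51 at 7 d over 24 h, −0.73, −0.75, −0.73 and −0.75 at 7 d over 4 h, −0.20, −0.21, −0.21 and −0.22 at 4 h over 0 h, and −0.89, −0.92, −0.90 and −0.93 at 7 d over 0 h. At 24 h over 0 h it was −0.38 with RLE, −0.38 with edgeR and −0.40 with DESeq2. These settings differ from library-size scaling by construction in where the middle of all genes is put. Leaving out 1 library at a time gave 16 to 34 members past the adjusted p-value between 4 h and 24 h (28 in all libraries), 8 to 14 called between 24 h and 7 d (9), and medians of −0.65 to −0.61 at 7 d over 4 h and −0.80 to −0.69 at 7 d over 0 h. Over all tested genes, 3137 passed the adjusted p-value between 4 h and 24 h in the fit with 16 members and 6146 in that with 34. In all libraries 4685 did. The fit with 14 members called between 24 h and 7 d called 844 of all tested genes, against 823 in all libraries. The cause was not tested. For calls of members named singly by rule, 540 alternatives kept direction and call and 6 fell under 2-fold. All 6 were in Ls2g79600.1, Ls7g99221.1 and Ls1g95341.1. None of the alternatives reversed direction. Calls of the other members, and calls gained, are outside these counts. Over all 98 members, 30 were downregulated at 7 d compared with 4 h, and 1386 of all tested genes. There were 27 without 4 h replicate 2 (1454 of all) and 28 without 7 d replicate 2 (1397 of all). With TMM, RLE, edgeR and DESeq2 there were 35 each (1629, 1664, 2264 and 2386 of all). A fit of the 9 cold libraries alone was added after seeing the data and called as many members (7, 9 and 31), with 34, 56 and 82 members past the adjusted p-value alone. Over all genes tested in that fit (22065), 5902, 6241 and 9705 passed it, against 4685, 4735 and 8233 of 22306 in the fit of all 12 libraries. The member counts thus rose together with those over all genes. Over all genes, edgeR and DESeq2 called 1346 and 1460 between 24 h and 7 d, against 823 in limma.

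Whether replicate numbers pair the libraries was not tested. Same-numbered pairs correlated at −0.22 to 0.19 in their deviations from the group means, 6 of 18 pairs were over 0.1, and 6 of 12 libraries were most like their own number. With the replicate number as a block, 7, 9 and 31 members were called in the 3 comparisons, as without it, and 26, 46 and 72 passed the adjusted p-value alone. Over all tested genes, 4399, 4312 and 7897 passed it with the block, against 4685, 4735 and 8233 without. Calls for families against 0 h were not run. Depth limits none of these genes.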
